A study of Mus musculus with 4 samples.

Results

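The brain endothelial genes described here are 10 transcripts that mark the cells lining brain blood vessels, Pecam1, Cdh5, Esam, Cldn5, Kdr, Flt1, Tek, Tie1, Mfsd2a and Slco1c1. They were taken by gene name from both deposited count tables, and all 10 were found once in each table, out of 19500 genes listed in both. Poly(A) RNA of brain samples at embryonic day 13 was compared between 2 samples labelled Wt1_CKO, a conditional deletion of the zinc finger factor Wt1, and 2 samples labelled WT with the Wt1fl/fl genotype (called Wt1_flfl), all on C57BL/6. The labels name neither the Cre line, nor the cells in which it acts, nor whether the Wt1_flfl animals carry it, nor whether a sample is 1 embryo or a pool. The p-values therefore measure only the spread between these samples. Each deposited table holds the Wt1_CKO and the Wt1_flfl library of one replicate number, and these are called the first and the second table below.

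Endothelial cells enter the embryonic brain as sprouts from a vessel network on its surface. Neural progenitors draw them in with the growth factor VEGF-A, read by the receptors encoded by Kdr and Flt1, and instruct them with Wnt7a and Wnt7b to build the blood-brain barrier. The barrier combines sealed cell junctions with transporters and a low rate of vesicle traffic, and the angiopoietin receptors encoded by Tek and Tie1 act in vessel maturation. In RNA from bulk tissue, fewer endothelial cells and less RNA per endothelial cell cannot be told apart.

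The libraries held 16219310 to 17704698 listed counts. The ribosomal RNA entry CT010467.1 had 74251 counts in Wt1_flfl replicate 1, against 3058 to 7902 counts in the other libraries. Wt1_CKO replicate 1 had 4 counts of Xist, which females make to silence an X chromosome, against 13086 to 16472 in the others. That library therefore differs in sex from the rest. All 10 endothelial genes lie on autosomes, and a part of sex in their values was not tested. Neural markers were abundant, with 10 genes such as Tubb3, Dcx and Map2 summing to 5882 to 6276 CPM (counts scaled to a library of 1000000 with TMM factors). Wt1 RNA itself is not analysed here, and the labels were not tested against the targeted gene.

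RefSeq start-site windows on GRCm38.p6 were found for 7 of the 10 genes. The 250 bases before the start are shown for Mfsd2a, whose libraries separated by genotype, for Kdr, which was lower in Wt1_CKO in both tables, and for its paralogue Flt1, which had no shared direction. Each reads 5′ to 3′ on the strand of the gene, and capitals mark the letters AGGAAG, a core bound by ETS factors of endothelial cells, or CTTTGA, a core bound by the TCF/LEF factors of Wnt signalling.
Mfsd2a, chr4:122961189-122961438, minus strand: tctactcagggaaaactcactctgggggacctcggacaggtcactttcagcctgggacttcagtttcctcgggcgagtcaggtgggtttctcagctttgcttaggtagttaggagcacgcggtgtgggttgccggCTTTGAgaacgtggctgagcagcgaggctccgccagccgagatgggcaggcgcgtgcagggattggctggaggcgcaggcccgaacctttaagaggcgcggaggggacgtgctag
Kdr, chr5:75978456-75978705, minus strand: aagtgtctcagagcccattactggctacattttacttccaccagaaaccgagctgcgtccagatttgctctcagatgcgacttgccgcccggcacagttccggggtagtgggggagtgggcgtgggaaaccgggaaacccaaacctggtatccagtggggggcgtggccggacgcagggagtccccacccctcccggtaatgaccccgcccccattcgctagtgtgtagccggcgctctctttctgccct
Flt1, chr5:147726012-147726261, minus strand: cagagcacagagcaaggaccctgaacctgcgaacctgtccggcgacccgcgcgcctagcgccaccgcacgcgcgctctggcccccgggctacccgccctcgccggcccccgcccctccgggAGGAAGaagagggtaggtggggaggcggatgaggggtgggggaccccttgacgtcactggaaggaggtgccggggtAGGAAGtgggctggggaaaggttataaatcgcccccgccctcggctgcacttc

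Flt1 held AGGAAG at 2 places and Mfsd2a held CTTTGA once, while the Kdr window held neither. With both strands searched, AGGAAG or CTTCCT occurred in 3 of the 7 endothelial windows (Tie1, Flt1 and Slco1c1), against 29.5% of 32851 windows of the same length. CTTTGA or TCAAAG occurred in 1 of 7, against 13.8%, and the GATA core AGATAA or TTATCT in 0 of 7, against 9.99%. No matches overlapped one another in these windows. A match describes the letters only, and their absence says only that they are not in this stretch.

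None of the 10 endothelial genes differed between Wt1_CKO and Wt1_flfl brain by edgeR's quasi-likelihood test, which called 0 of 10 at a Benjamini-Hochberg adjusted p of 0.05. Across all 15933 genes tested 0.00628% were called, which is 1 gene, the pseudogene Rpl3-ps1, whose reads may be shared with the ribosomal protein gene Rpl3. The adjusted p was 0.99996 for each endothelial gene, 0 had an unadjusted p under 0.05, beside 1.56% of tested genes, and DESeq2 and limma-voom also called 0 of the 10. Their log2 fold changes (Wt1_CKO minus Wt1_flfl) ran from -0.25 for Cdh5 to 0.20 for Mfsd2a with a median of -0.09, beside a median of 0.01 over all tested genes. The summed level of the 10 was 168 and 171 CPM in Wt1_CKO replicates 1 and 2, against 173 and 182 CPM in Wt1_flfl replicates 1 and 2. The Wt1_CKO sums lay below both Wt1_flfl sums, with a gap smaller than the spread within either genotype, and no p is given for a sum over chosen genes. A miss of the threshold does not show equal levels, so the 95% interval of each difference by limma-voom is given below.

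**Figure D1:**
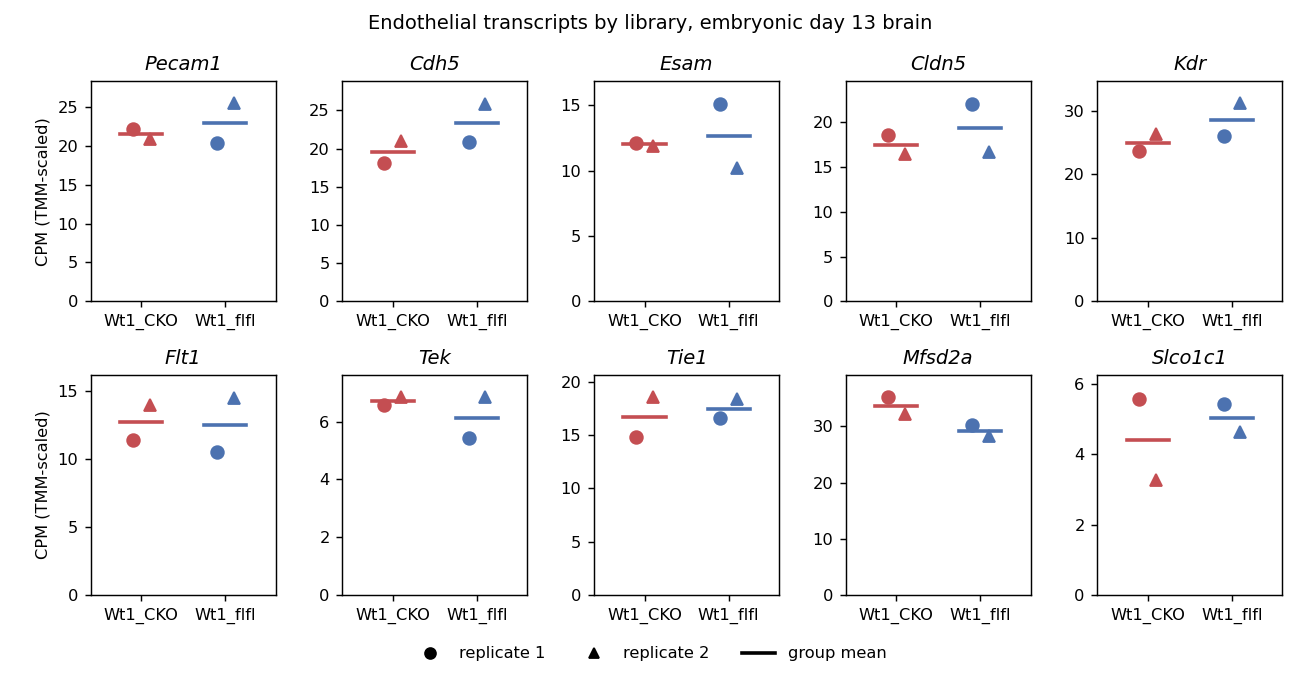
CPM of each of the 10 endothelial genes (vertical axes, each from 0) in the 2 Wt1_CKO and the 2 Wt1_flfl libraries, with circles for replicate 1, triangles for replicate 2 and a line at the group mean. The genotypes overlap for 9 genes, and Mfsd2a is the one whose Wt1_CKO libraries (35.2 and 32.1 CPM) both lie above the Wt1_flfl libraries (30.2 and 28.3 CPM).

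Among the junction genes, Cdh5 encodes VE-cadherin, the adhesion protein of endothelial adherens junctions. Cdh5 (ENSMUSG00000031871, chromosome 8, 104101625 to 104144511) had 18.1 and 21.02 CPM in Wt1_CKO replicates 1 and 2, against 20.8 and 25.8 CPM in Wt1_flfl replicates 1 and 2. The higher Wt1_CKO library just exceeded the lower Wt1_flfl library, so the genotypes overlapped although each table had the lower value in Wt1_CKO. Cdh5 had a log2 fold change of -0.25 (SE 0.189, n = 2 per genotype), and its limma-voom interval ran from -0.68 to 0.18.

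Pecam1 encodes CD31, an adhesion protein of endothelial cell contacts that platelets and leukocytes also carry. Pecam1 (ENSMUSG00000020717, chromosome 11, 106654217 to 106750628) had 22.1 and 20.8 CPM in Wt1_CKO brains, against 20.4 and 25.5 CPM in Wt1_flfl brains. Both Wt1_CKO values fell between the Wt1_flfl values. Its log2 fold change was -0.10 (SE 0.166), with an interval from -0.50 to 0.32.

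Cldn5 encodes claudin-5, the main claudin of brain endothelial tight junctions. In Wt1_CKO replicates 1 and 2 Cldn5 (ENSMUSG00000041378, chromosome 16, 18776847 to 18778260) had 18.6 and 16.4 CPM, against 22.1 and 16.7 CPM in Wt1_flfl replicates 1 and 2. Only Wt1_flfl replicate 1 stood above the rest, and the log2 fold change was -0.15 (SE 0.219, interval -0.60 to 0.34). Esam, an immunoglobulin-family protein of endothelial tight junctions that is also found on platelets, showed the same library on top. Esam (ENSMUSG00000001946, chromosome 9, 37528078 to 37538319) had 12.1 and 11.8 CPM in Wt1_CKO brains, against 15.1 and 10.2 CPM in Wt1_flfl brains, and both Wt1_CKO values lay between the Wt1_flfl values. The log2 fold change of Esam was -0.08 (SE 0.278, interval -0.60 to 0.51).

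Kdr encodes VEGFR2, the main signalling receptor for VEGF-A on endothelial cells. Kdr (ENSMUSG00000062960, chromosome 5, 75932827 to 75978458) had 23.8 and 26.3 CPM in Wt1_CKO brains, against 26.0 and 31.2 CPM in Wt1_flfl brains. As for Cdh5, the Wt1_CKO value was the lower in each table, and Wt1_CKO replicate 2 overlapped Wt1_flfl replicate 1. The log2 fold change was -0.19 (SE 0.149, interval -0.57 to 0.19). Flt1 encodes VEGFR1, which binds VEGF-A tightly and is also made as a soluble decoy, and its gene count does not separate the forms. In Wt1_CKO brains Flt1 (ENSMUSG00000029648, chromosome 5, 147561604 to 147726011) had 11.4 and 13.9 CPM, against 10.5 and 14.5 CPM in Wt1_flfl brains, so the Wt1_CKO values lay within the Wt1_flfl range. Its log2 fold change was 0.02 (SE 0.270, interval -0.52 to 0.57).

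Tek encodes TIE2, the angiopoietin receptor, and Tie1 a related receptor with no angiopoietin of its own that pairs with it. Tek (ENSMUSG00000006386, chromosome 4, 94739289 to 94874976) had 6.58 and 6.85 CPM in Wt1_CKO brains, against 5.42 and 6.84 CPM in Wt1_flfl brains. Only Wt1_flfl replicate 1 stood lower than the rest, on 87 counts, and the log2 fold change was 0.13 (SE 0.167, interval -0.43 to 0.70). Tie1 (ENSMUSG00000033191, chromosome 4, 118471191 to 118490061) had 14.8 and 18.6 CPM in Wt1_CKO brains, against 16.6 and 18.4 CPM in Wt1_flfl brains. The Wt1_flfl values lay within the Wt1_CKO range. Its log2 fold change was -0.07 (SE 0.178, interval -0.52 to 0.37).

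Mfsd2a encodes a lipid transporter of brain endothelium that carries lysophospholipids and holds vesicle traffic low. Mfsd2a (ENSMUSG00000028655, chromosome 4, 122946850 to 122961188) had 35.2 and 32.1 CPM in Wt1_CKO brains, against 30.2 and 28.3 CPM in Wt1_flfl brains. It was the 1 gene of the 10 whose Wt1_CKO libraries both lay above the Wt1_flfl libraries, an order found for 13.4% of all tested genes, and 0 of the 10 had the reverse order, found for 13.5%. The log2 fold change was 0.20 (SE 0.0818), the unadjusted edgeR p 0.176 and the interval from -0.12 to 0.53. Within tables the Wt1_CKO to Wt1_flfl ratio was 1.17 in the first table, with an exact binomial (Clopper-Pearson) 95% interval from 1.03 to 1.32, and 1.14 in the second table, from 1.003 to 1.29. These intervals cover counting error between 2 libraries and not the spread between brains.

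Slco1c1 encodes a thyroid hormone transporter of brain endothelium that rodent choroid plexus also makes. Slco1c1 (ENSMUSG00000030235, chromosome 6, 141524368 to 141570177) had 5.57 and 3.25 CPM in Wt1_CKO brains, against 5.42 and 4.62 CPM in Wt1_flfl brains. Wt1_CKO replicate 2 was the low library, on 56 counts, and both Wt1_flfl values lay within the Wt1_CKO range. Its log2 fold change was -0.18 (SE 0.393), and its interval, from -1.01 to 0.56, was the widest of the 10. The list of choroid plexus markers, with 9 of 10 markers listed in both tables and 5 of these under 1 CPM in every library, summed to 61.7 and 27.5 CPM in Wt1_CKO replicates 1 and 2, against 24.6 and 50.2 CPM in Wt1_flfl replicates 1 and 2. Otx2, which midbrain also expresses, had 15.8 and 24.0 CPM in Wt1_CKO replicates 1 and 2, against 22.4 and 31.4 CPM in Wt1_flfl replicates 1 and 2. Otx2 made up most of each sum except that of Wt1_CKO replicate 1, where Ttr had 40.3 CPM. Ttr, the transthyretin gene and the defining transcript of choroid plexus, had 717 and 17 counts in Wt1_CKO replicates 1 and 2. In Wt1_flfl replicates 1 and 2 it had 4 and 213 counts. The log2 fold change of Ttr was 1.69 (SE 3.64), with the Wt1_CKO library far higher in the first table and lower in the second table. Clic6, another choroid plexus gene, had 59 and 7 counts in Wt1_CKO brains, against 1 and 62 counts in Wt1_flfl brains. The part of choroid plexus RNA in the Slco1c1 values was not tested.

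**Figure D2:**
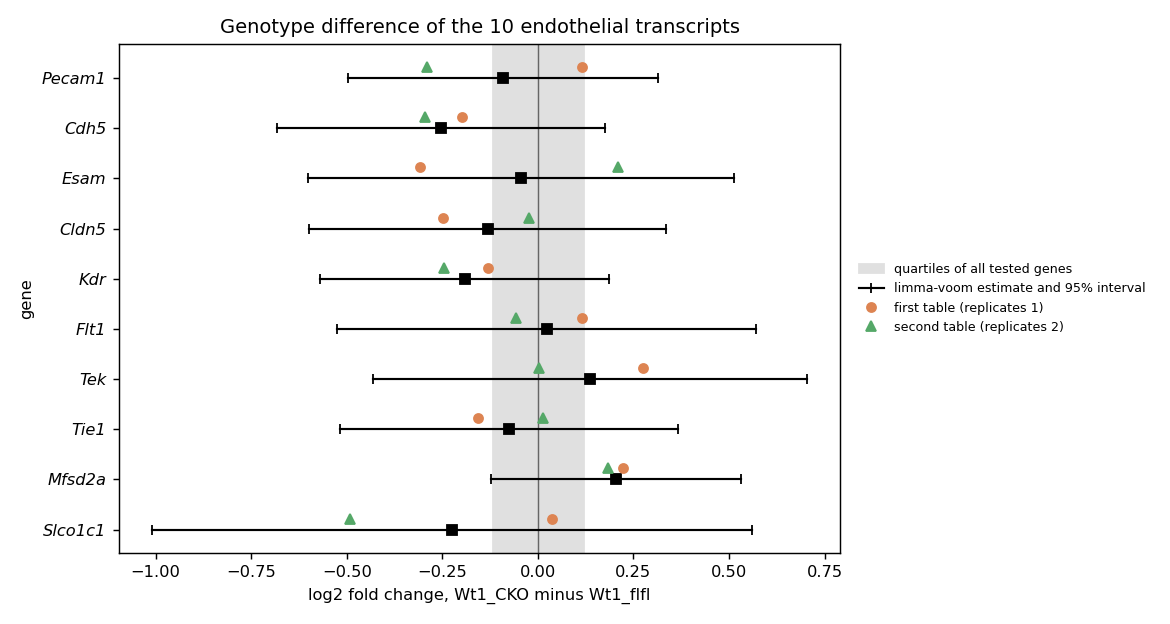
Log2 fold change of Wt1_CKO minus Wt1_flfl (horizontal axis) for the 10 endothelial genes, with squares and bars for the limma-voom estimate and its 95% interval, circles for the first table and triangles for the second table, and a grey band for the quartiles of all tested genes. Every interval spans 0, and the tables point in opposite directions for 5 genes.

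The direction of the genotype difference was shared by both tables for 5 of the 10 genes. Cdh5, Kdr and Cldn5 were the 3 genes lower in Wt1_CKO in both tables, a share of genes found at 25.9% among all those tested. Mfsd2a and Tek were the 2 genes higher in both (Tek by 0.00 on the log2 scale in the second table), against 27% of tested genes, and the other 5 pointed in opposite directions, against 47.2%. The counts for the endothelial genes are thus close to those of any tested genes. The second table had lower Wt1_CKO values beyond counting error for Pecam1, with a ratio of 0.816 and an interval from 0.708 to 0.941, for Cdh5, with 0.814 from 0.706 to 0.937, and for Kdr, with 0.843 from 0.742 to 0.957. In the first table those ratios were 1.08 for Pecam1, 0.870 for Cdh5 and 0.913 for Kdr, each with an interval spanning 1. Beyond counting error the first table had lower Wt1_CKO values for Cldn5, with a ratio of 0.842 from 0.722 to 0.980. The same held there for Esam, with 0.806 from 0.668 to 0.972. Mfsd2a was higher in Wt1_CKO beyond counting error in both tables, with 1.17 from 1.03 to 1.32 and 1.14 from 1.003 to 1.29. These intervals are not adjusted for the number of genes compared. The share of all tested genes beyond counting error was not computed, so the intervals do not set these genes apart from others. Leaving out any 1 library kept the direction of Cdh5, Kdr and Mfsd2a, which for Mfsd2a follows from libraries that do not overlap, and turned that of the other 7 genes in at least 1 case.

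The authors' deposited tables, which compare 1 library with 1 library, mark none of the 10 genes as significant. The mark is carried by 3.2% of genes in the first table and by 3.19% in the second table. An adjusted p under 0.05 stands in the authors' deposited table of replicates 1 for Mfsd2a alone, at 0.0186, where 23.3% of listed genes have one. In the authors' deposited table of replicates 2 it stands for Cdh5 at 0.0232, Pecam1 at 0.0264 and Kdr at 0.0406, where 19.2% have one. The authors' adjusted p of Mfsd2a was 0.0905 in that table.

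Libraries of the same genotype also differed, mostly in the same direction in both genotypes. Cdh5 and the 4 receptor genes Kdr, Flt1, Tek and Tie1 were higher in replicate 2 than in replicate 1 in both genotypes. That is 5 of 10 genes, beside 32.3% of all tested genes. Cldn5, Esam, Mfsd2a and Slco1c1 were lower in replicate 2 in both genotypes, 4 of 10 beside 32.4%. Flt1 had a replicate 2 to replicate 1 ratio of 1.22 in Wt1_CKO and 1.38 in Wt1_flfl, and Cldn5 one of 0.883 in Wt1_CKO and 0.756 in Wt1_flfl. Pecam1, with ratios of 0.941 in Wt1_CKO and 1.25 in Wt1_flfl, was the gene without a shared order. No label says what a replicate number stands for, and with 1 library per genotype and number these orders carry no test.

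**Figure D3:**
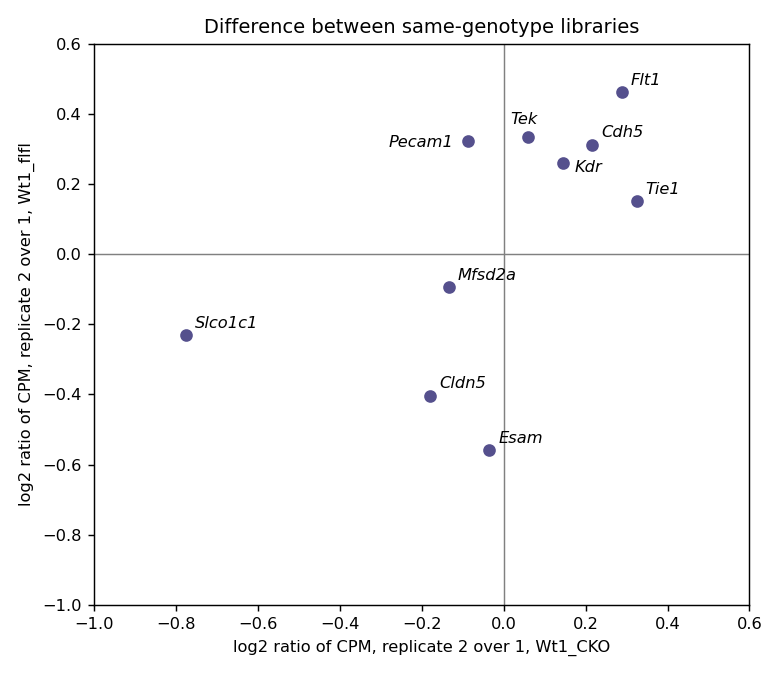
Log2 ratio of CPM in replicate 2 over replicate 1 in Wt1_CKO (horizontal axis) and in Wt1_flfl (vertical axis), with 1 point per endothelial gene. Cdh5, Kdr, Flt1, Tek and Tie1 lie above 0 on both axes, and Cldn5, Esam, Mfsd2a and Slco1c1 below 0 on both.

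Per kilobase of merged exons (GENCODE vM21), Mfsd2a and Cldn5 were the most abundant of the 10 transcripts. The level of Mfsd2a was 15.0 ± 0.984 CPM per kb in Wt1_CKO and 12.997 ± 0.602 CPM per kb in Wt1_flfl (SD, n = 2 each). That of Cldn5 was 12.4 ± 1.08 CPM per kb in Wt1_CKO and 13.7 ± 2.69 CPM per kb in Wt1_flfl. The library values of Mfsd2a and Cldn5 overlapped, and the lowest Cldn5 library stood above the highest library of the next gene, Cdh5. Cdh5 had 4.65 ± 0.492 CPM per kb in Wt1_CKO and 5.55 ± 0.847 CPM per kb in Wt1_flfl, and Esam, Pecam1, Tie1 and Kdr followed in that order, each overlapping its neighbour. Kdr, with a level of 2.77 ± 0.198 CPM per kb in Wt1_CKO and 3.17 ± 0.405 in Wt1_flfl, stood above Tek in all libraries. Tek, with 1.43 ± 0.0414 CPM per kb in Wt1_CKO and 1.30 ± 0.213 in Wt1_flfl, stood above Flt1 in all libraries. Flt1 and Slco1c1 had the lowest levels and overlapped. Flt1 had 0.939 ± 0.132 CPM per kb in Wt1_CKO and 0.926 ± 0.208 in Wt1_flfl, and Slco1c1 had 0.850 ± 0.315 CPM per kb in Wt1_CKO and 0.967 ± 0.109 in Wt1_flfl. Merged exons include those of forms not used in brain, which lowers the values of genes with many forms, such as Flt1 with 13504 merged bases. No exon of the 10 genes shared a base with an exon of another annotated gene.

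In the wider list of 30 other pan-endothelial genes, more were lower than higher in Wt1_CKO in both tables, without a call. All 30 were tested, 0 passed edgeR's adjusted threshold and 0 had an unadjusted p under 0.05. Of the 30, 14 were lower in both tables, beside 25.9% of all tested genes, and 1 was higher in both, beside 27%. Both Wt1_CKO libraries lay below both Wt1_flfl libraries for 7 of the 30, beside 13.5%, and above them for 0, beside 13.4%. Genes that share a cell type are not independent, so these counts carry no test. The 30 summed to 216 and 250 CPM in Wt1_CKO replicates 1 and 2, against 239 and 262 CPM in Wt1_flfl replicates 1 and 2. These sums overlapped between genotypes, and replicate 2 had the higher sum in both genotypes. The median log2 fold change was -0.10, but it was 0.00 with Wt1_flfl replicate 2 left out and -0.03 with Wt1_CKO replicate 1 left out. Leaving out Wt1_flfl replicate 1 gave -0.13, and leaving out Wt1_CKO replicate 2 gave -0.26. The median of the 10 genes was -0.11 and -0.06 when Wt1_CKO replicates 1 and 2 were left out in turn, against -0.10 and -0.02 when Wt1_flfl replicates 1 and 2 were, so that leaving out a Wt1_CKO library moved the medians of the 10 and of the 30 in opposite directions. S1pr1, a sphingosine phosphate receptor, had 29.3 and 29.2 CPM in Wt1_CKO brains, against 27.5 and 31.6 CPM in Wt1_flfl brains, and the genotypes overlapped. Eng, the TGF beta co-receptor endoglin, had 19.0 and 23.2 CPM in Wt1_CKO brains, against 27.6 and 23.8 CPM in Wt1_flfl brains, and did not overlap. Cd34, a sialomucin of vessel and blood progenitor cells, had 18.04 and 21.02 CPM in Wt1_CKO brains, against 21.7 and 21.6 CPM in Wt1_flfl brains, and did not overlap either. Plvap, which encodes the diaphragm protein of leaky vessels, had 6.46 and 10.8 CPM in Wt1_CKO brains, against 8.47 and 11.05 CPM in Wt1_flfl brains, and overlapped.

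**Figure D4:**
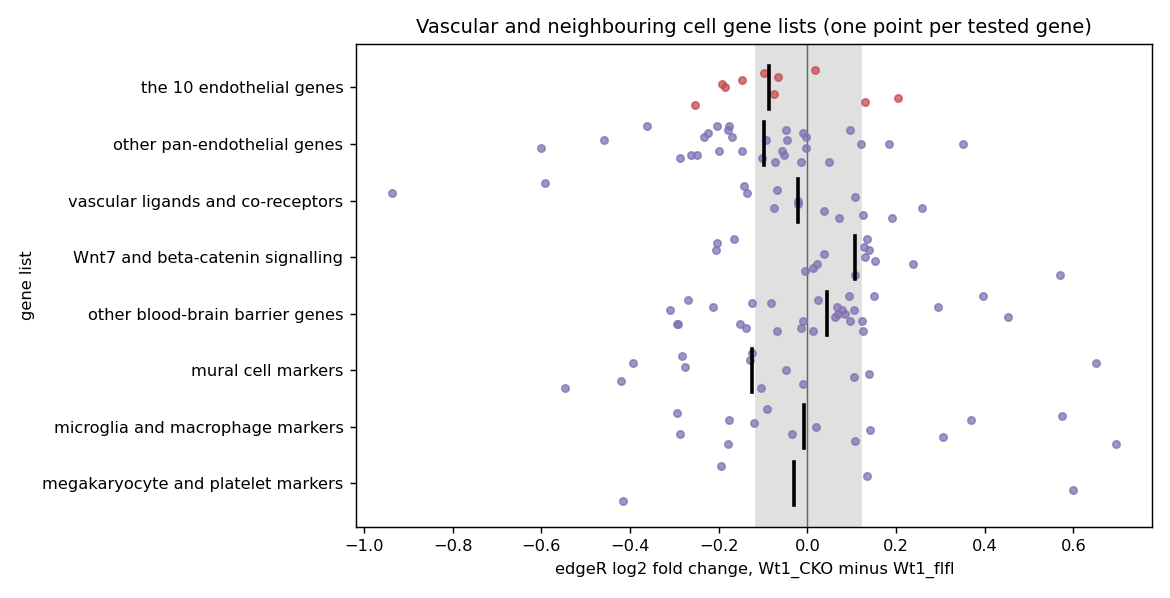
EdgeR log2 fold change of Wt1_CKO minus Wt1_flfl (horizontal axis) for each tested gene of 8 lists, with a bar at each list's median and a grey band for the quartiles of all tested genes. The medians lie between -0.13 for mural cell markers and 0.11 for the Wnt7 and beta-catenin list, and no gene shown passed the adjusted threshold.

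Among the ligands and co-receptors of vessel growth, 0 of 14 tested genes passed in either direction, and the median log2 fold change was -0.02. Both Wt1_CKO libraries lay below both Wt1_flfl libraries for 3 of the 14, beside 13.5% of all tested genes. They lay above them for 1, beside 13.4%. Vegfa, the ligand of Kdr and Flt1, had 70.7 and 86.6 CPM in Wt1_CKO brains, against 70.1 and 79.6 CPM in Wt1_flfl brains. Those values overlapped, as did those of the co-receptor gene Nrp2, with a log2 fold change of -0.07, and of the ephrin gene Efnb2, with 0.11. Angpt1, the activating ligand of TIE2, had 9.11 and 9.87 CPM in Wt1_CKO brains, against 8.03 and 8.59 CPM in Wt1_flfl brains, and the genotypes did not overlap. Angpt2, a context-dependent antagonist of TIE2 made by sprouting endothelium, had 1.18 and 1.05 CPM in Wt1_CKO brains, against 1.99 and 2.28 CPM in Wt1_flfl brains. These rest on 18 to 39 counts per library. The Angpt2 log2 fold change of -0.94 (SE 0.121) had an unadjusted edgeR p of 0.0427 and an adjusted p of 0.99996. Its SE, from 2 libraries per genotype, understates the counting error of such low counts.

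In the list of Wnt7 and beta-catenin signalling, 0 of 15 genes passed in either direction, with 1 at an unadjusted p under 0.05. Of the 15, 7 were higher in both tables, beside 27% of all tested genes, and 2 were lower in both, beside 25.9%. The list's median difference on the log2 scale was 0.11. Both Wt1_CKO libraries lay above both Wt1_flfl libraries for 5, beside 13.4%, and below them for 2, beside 13.5%. Wnt7a had 54.6 and 69.0 CPM in Wt1_CKO brains, against 51.2 and 53.5 CPM in Wt1_flfl brains, and both Wt1_CKO libraries were the higher. Wnt7b went the other way, with 194 and 159 CPM in Wt1_CKO brains against 200 and 196 CPM in Wt1_flfl brains. Reck, which encodes a membrane protein through which endothelial cells detect Wnt7, overlapped between genotypes and had a log2 fold change of 0.15. Ctnnb1, encoding beta-catenin, had one of 0.13 and the Wnt co-receptor gene Lrp6 one of 0.00, and neither passed.

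Of 28 further blood-brain barrier genes, 0 passed. Lower in both tables were 8, beside 25.9% of all tested genes, and higher in both were 8, beside 27%. The median log2 fold change of these 28 was 0.04, and it ran from -0.07 to 0.01 when 1 library was left out. Slc2a1, encoding the glucose transporter GLUT1, had 66.4 and 78.5 CPM in Wt1_CKO brains, against 76.8 and 84.1 CPM in Wt1_flfl brains, which overlapped. The most abundant members of that list, Ttyh1, Spock2 and Slc3a2, had log2 fold changes of 0.08, -0.21 and -0.14, and neural cells also express them. Mural cells, the pericytes and smooth muscle cells around vessels, had 13 of 16 markers tested, of which 0 passed, and a median of -0.13 that ran from -0.29 to 0.01 when 1 library was left out. Pdgfrb, the pericyte receptor, had 17.7 and 18.4 CPM in Wt1_CKO brains, against 17.9 and 21.6 CPM in Wt1_flfl brains. Rgs5, a signalling regulator of pericytes, had a log2 fold change of 0.14 and Notch3 one of -0.01, and the genotypes overlapped for each. Zic1, which neural progenitors also make, had one of -0.39 and 2 libraries lower in Wt1_CKO without passing.

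Markers of blood cells, some of which also carry Pecam1 or Esam, were measured beside the endothelial genes. The 8 megakaryocyte and platelet markers listed in both tables summed to 20.1 and 22.1 CPM in Wt1_CKO replicates 1 and 2, against 24.5 and 26.3 CPM in Wt1_flfl replicates 1 and 2, and 4 of the 8 were under 1 CPM in every library. Gp1bb, encoding a subunit of a platelet adhesion receptor, made up most of that sum, with 11.3 and 11.2 CPM in Wt1_CKO brains, against 13.6 and 16.4 CPM in Wt1_flfl brains. Nrgn, which neurons also express, was next with 5.45 and 5.52 CPM in Wt1_CKO brains, against 7.60 and 4.97 CPM in Wt1_flfl brains, so the sum is not one of blood cells alone. Itga2b, the platelet integrin gene, had 2.02 and 3.25 CPM in Wt1_CKO brains, against 1.99 and 2.81 CPM in Wt1_flfl brains. The platelet chemokine gene Pf4 had 3 and 9 counts in Wt1_CKO brains, against 2 and 12 counts in Wt1_flfl brains. Gp9 and Ppbp of the same list had 1 to 6 counts per library, against 193 to 280 counts for Gp1bb. The part of platelet RNA in the Gp1bb values was not tested. The 15 microglia and macrophage markers, led by Csf1r, Cd68 and P2ry12, summed to 60.3 and 49.2 CPM in Wt1_CKO brains, against 57.2 and 54.4 CPM in Wt1_flfl brains. The part of these cells in the values of Pecam1 and Esam was not tested.

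Lyve1, a lymphatic and macrophage gene, had 4 and 7 counts in Wt1_CKO brains, against 2 and 2 counts in Wt1_flfl brains. Meninges carry vessels of their own, and the 15 meningeal and mesenchymal markers listed in both tables summed to 74.5 and 103 CPM in Wt1_CKO replicates 1 and 2, against 82.6 and 136 CPM in Wt1_flfl replicates 1 and 2. Their sums were higher in replicate 2 in both genotypes, as were Cdh5, Kdr, Flt1, Tek and Tie1, and so were the 12 erythroid markers, with 916 and 1811 CPM in Wt1_CKO brains and 974 and 1863 CPM in Wt1_flfl brains. Their part in the values of the endothelial genes was not tested. In the lists of other cells 0 genes passed, among 14 tested for microglia and macrophages, 4 for megakaryocytes and platelets, 11 for erythroid cells, 12 for meninges and mesenchyme, 4 each for choroid plexus and lymphatic endothelium and 10 for the neural lineage. Their median log2 fold changes ran from -0.27 for meninges and mesenchyme to 0.04 for erythroid cells. Each of these medians turned direction when 1 library was left out, and then ran from -1.12 to 2.31 for choroid plexus, -0.90 to 0.46 for erythroid cells, -0.50 to 0.16 for meninges and mesenchyme, -0.25 to 0.32 for megakaryocytes and platelets, -0.16 to 0.19 for lymphatic endothelium, -0.13 to 0.08 for microglia and macrophages and -0.09 to 0.14 for the neural lineage. Among their most abundant genes, the embryonic globin genes Hbb-y and Hba-x had log2 fold changes of 0.07 and 0.04, and Hba-a1, which has a near-identical copy in Hba-a2, had one of -0.31. The retinoid-binding protein gene Crabp2 had one of -0.15, the mesenchymal factor gene Prrx1 one of 0.05, the collagen gene Col3a1 one of -0.29, the microglial receptor gene Csf1r one of 0.31 and the choroid plexus and midbrain gene Otx2 one of -0.44. Reln, Pdpn and Prox1 led the lymphatic list, and neural cells of the embryonic brain also express them.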

How the data were processed

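Per the labels' protocols, poly(A) RNA was bound to oligo(dT) and copied from random primers, and strand is not stated. The submitters' processing notes name Bowtie2 2.2.3, TopHat2 2.0.12, HTSeq 0.6.0 and mm9. Positions of 20590 of 22368 gene IDs equal GENCODE vM21 on GRCm38, so they are given on GRCm38. Per the file headers, the authors deposited whole-number counts and CPM per gene and library, the fold ratio of the CPM columns, its log2, and p-values and adjusted p-values of 1 library against 1 library by a method that the sources used here do not name.

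Genes listed in both deposited tables were tested on their counts by edgeR 4.0.16, run in R 4.3.3 (filterByExpr with a minimum count of 10, TMM, quasi-likelihood F test, genotype as the only term, Benjamini-Hochberg over 15933 genes, threshold 0.05). The test was tried on simulated counts first. CPM are over TMM-adjusted totals. Differences within a table use log2 CPM (prior count 2), and SEs come from the SDs of 2 libraries per genotype. Such an SE can fall below counting error where the libraries lie close together. Intervals are from limma-voom (limma 3.58.1) or exact binomial. The latter cover counting error only, since PCR copies cannot be told from separate molecules. Members and the 12 other lists were chosen with earlier results of these data known. Named genes are the 10, the 3 most abundant of each other list, and Vegfa, Angpt1, Angpt2, Plvap, Slc2a1, Wnt7a, Wnt7b, Reck and Pdgfrb. Others were chosen after their values were seen. Alternatives were a replicate block, other scalings, filters and tools (DESeq2 1.42.0, limma-voom, robust edgeR), leaving out each library or haemoglobin, mitochondrial and sex-linked genes, and entering a gene missing from a table as 0.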

Additional observations from a re-analysis of the deposited data

How the results depend on the processing

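None of the 10 endothelial genes was called under any of the 14 alternatives, and Cdh5, Kdr and Mfsd2a kept their direction in all of them, with log2 fold changes from -0.400 to -0.089 for Cdh5, -0.316 to -0.056 for Kdr and 0.135 to 0.270 for Mfsd2a when 1 library was left out. The other 7 turned direction only where 1 library was left out, and their log2 fold changes then ran from -0.247 to 0.074 for Pecam1, -0.192 to 0.268 for Flt1, -0.025 to 0.309 for Tek, -0.236 to 0.087 for Tie1, -0.335 to 0.069 for Cldn5, -0.329 to 0.231 for Esam and -0.624 to 0.151 for Slco1c1. The cause was not tested. No label pairs the samples by number. Across genes the deviations of same-numbered libraries from their group means had a Pearson correlation of 0.28 and a Spearman correlation of 0.36, over 2 pairs only. With the number as a replicate block the calls over all genes went to 42, against 1 without it, and the smallest adjusted p among the 10 genes was 0.771, for Cdh5. The count over all genes was 5 with DESeq2, 0 without haemoglobin, mitochondrial and sex-linked genes, which leaves out the X-linked Rpl3-ps1, and 3 to 73 without 1 library. Of the 158 tested genes of the other lists edgeR called 0, as did DESeq2 and limma-voom. By edgeR 8 of the 158 had an unadjusted p under 0.05, beside 1.56% of all tested genes. That background lies under the nominal share of 0.05, so the 8 are not read as an excess. The block called 2, Col1a1 and Tnfrsf19, and leaving out 1 library called 0 to 2, which were Foxd1 and Hba-a1 without Wt1_flfl replicate 1, and Ttr without Wt1_flfl replicate 2. The 10 genes had 56 to 627 counts per library, and with 2 samples per genotype the intervals given are wide.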

Other observations

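Of the 158 tested genes of the other lists, 8 had an unadjusted edgeR p under 0.05, and none passed after adjustment. The share over all tested genes was 1.56%, itself under the nominal 0.05, so no excess is read from the 8. The genes among these 8 are named here after their values were seen. Besides Angpt2 and Zic1, they include Dll4, the Notch ligand of sprouting endothelial tip cells, with 4.44 and 4.36 CPM in Wt1_CKO replicates 1 and 2, against 6.73 and 6.55 CPM in Wt1_flfl replicates 1 and 2. Both Wt1_CKO values of Dll4 were lower, on 75 to 112 counts per library, with a log2 fold change of -0.59 (SE 0.0236). That SE reflects libraries of the same genotype that lay close together, and it understates the counting error of such counts. Vtn, the vitronectin gene that pericytes of the brain express, had 8.43 and 7.26 CPM in Wt1_CKO brains, against 11.6 and 11.3 CPM in Wt1_flfl brains. Col1a1, a collagen of meningeal fibroblasts, had 5.28 and 4.70 CPM in Wt1_CKO brains, against 8.90 and 12.8 CPM in Wt1_flfl brains, with a log2 fold change of -1.12 (SE 0.271). Slc16a1, encoding the lactate transporter MCT1, had 25.2 and 26.7 CPM in Wt1_CKO brains, against 19.6 and 19.9 CPM in Wt1_flfl brains, and was higher in both Wt1_CKO libraries. Tnfrsf19, a Wnt-responsive receptor, had 74.2 and 50.0 CPM in Wt1_CKO brains, against 48.8 and 34.9 CPM in Wt1_flfl brains.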
